A study of Oryza sativa with 4 samples.

Results

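*TIP2-2* (OS06G0336200) encodes a probable aquaporin, and it is 1 of the 287 genes in the deposited table for young rice panicles. It was chosen by its own values, since the table holds only genes that the authors called as different and *TIP2-2* was picked for its high read count in the control plants and its low ratio in the OX*OsAFB6* mutant. Its level and its ratio are therefore given as a description, with no test. The identifier places the gene on chromosome 6, as does the RefSeq gene table, where the name *TIP2-2* is held by 1 gene. Positions in the genome are not printed, because the assembly of that table is not the build named for the reads.

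The mutant and the control plants were both in the rice variety Zhonghua 11. OX*OsAFB6* is 1 transgenic line, in which the vector landed upstream of *OsAFB6*, an auxin receptor gene, and the inserted vector had been built to overexpress another gene, *CCT05*. The control plants were labelled as negative plants of the same transgenic event, and the methods of the study describe such plants as raised from calli that carried no foreign DNA. Panicles shorter than 1 mm came from the main culms of 80 plants of each genotype. Each collection was divided into 2 replicates, so the difference between replicates does not include separate growths. The study reports later heading in the mutant, and panicles were matched by length. Genotype and any difference in plant age at collection therefore cannot be told apart. A lower level per cell and a smaller share of the cells that express a gene cannot be told apart in such bulk RNA.

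Aquaporins are membrane channels that let water, and in some members other small neutral molecules, cross a membrane. In plants the tonoplast intrinsic proteins (TIPs) sit in the membrane of the vacuole, the plasma membrane intrinsic proteins (PIPs) at the cell surface, and the nodulin 26-like intrinsic proteins (NIPs) carry solutes such as silicic acid or boric acid. TIP genes are known for high expression in cells that enlarge by filling a central vacuole, whereas meristem cells hold small vacuoles.

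The table gives 1 mean for each genotype. Each mean resolved into the whole reads of 2 libraries, each scaled by its own size factor, so the value of *TIP2-2* could be read in all 4 libraries. These values are called normalized read counts here. They are not divided by gene length. Replicate numbers cannot be read from a mean, so the library with the smaller size factor of each genotype is called A and the other B. Control libraries A and B had size factors of 0.887 and 0.977, and mutant libraries A and B of 1.01 and 1.14. Over the 285 genes that resolved in both genotypes, the libraries held between 209008 and 423577 reads, and their total depth is unknown. As a marker of the labelled tissue, *FL*, the rice relative of the floral meristem gene LEAFY, was read in all 4 libraries, with mean normalized read counts of 2725 (control) and 6846 (OX*OsAFB6*).

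*TIP2-2* had 15638 and 18981 reads from control libraries A and B, and 2574 and 3993 reads in mutant libraries A and B. Scaled by size factor, the control libraries stood at 17626 and 19431 and the mutant libraries at 2549 and 3498. Both mutant libraries lay far below both control libraries. The exact Poisson 95% intervals, which cover counting error only, were 17351 to 17905 and 19156 to 19710 for the control libraries and 2451 to 2649 and 3390 to 3608 for the mutant libraries. The intervals did not overlap even within a genotype, so the libraries of a genotype differed by more than counting error.

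The authors' mean for *TIP2-2* was 18529 for the control plants and 3023 for OX*OsAFB6*. The gene was 6.13-fold lower in OX*OsAFB6*, a log2 ratio of -2.62. Between single libraries the log2 ratio ran from -2.93 for the widest pair to -2.33 for the closest pair. Leaving out 1 library at a time, the gene was between 5.30-fold and 7.27-fold lower. The genotypes did not overlap, and neither did they in any of the 285 resolved genes (100%), all of which had been selected for a difference.

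**Figure D1:**
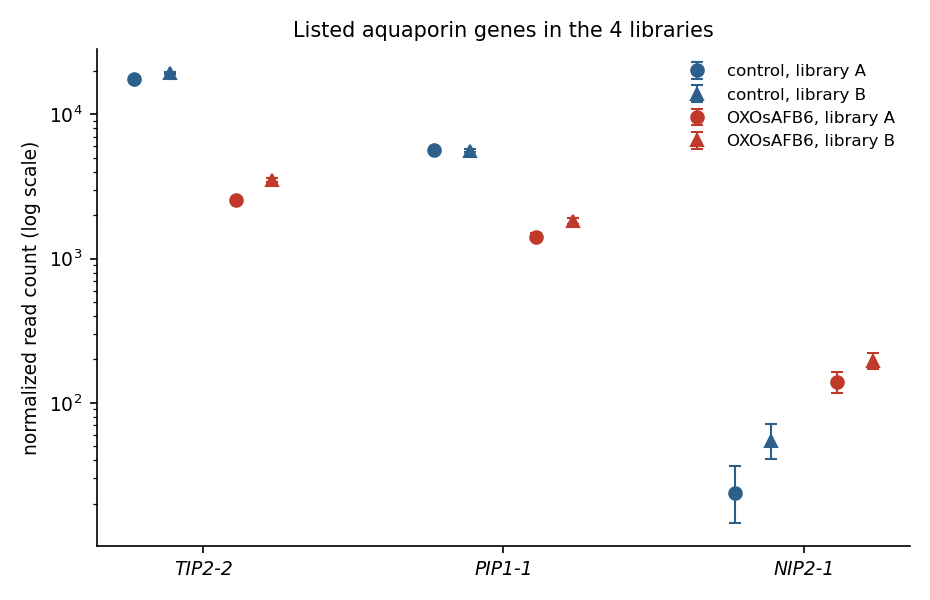
Normalized read count (y axis, log scale) of the 3 listed aquaporin genes (x axis) in libraries A (circles) and B (triangles) of the control plants (blue) and OX*OsAFB6* (red), with bars for the exact Poisson 95% interval, which covers counting error only. *TIP2-2* lay at 17626 and 19431 in the control plants against 2549 and 3498 in the mutant, and *NIP2-1* is the gene whose mutant libraries lie above the control libraries.

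The library difference of *TIP2-2* was small in the control plants and moderate in the mutant. Library B over library A gave a log2 ratio of 0.14 in the control plants and 0.46 in the mutant. The median absolute log2 ratio over the resolved genes was 0.32 in the control plants and 0.28 in the mutant. High counts usually repeat better, so the comparison was also made among the 80 resolved genes with a control mean of at least 1000, where the medians were 0.27 and 0.22. Of the other 79 of these genes, 21 differed more than *TIP2-2* between the mutant libraries and 63 differed more between the control libraries. Mutant library B was the higher one for *TIP2-2*, and it was also the higher one for 57 of these 80 genes and for 169 of all 285.

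**Figure D2:**
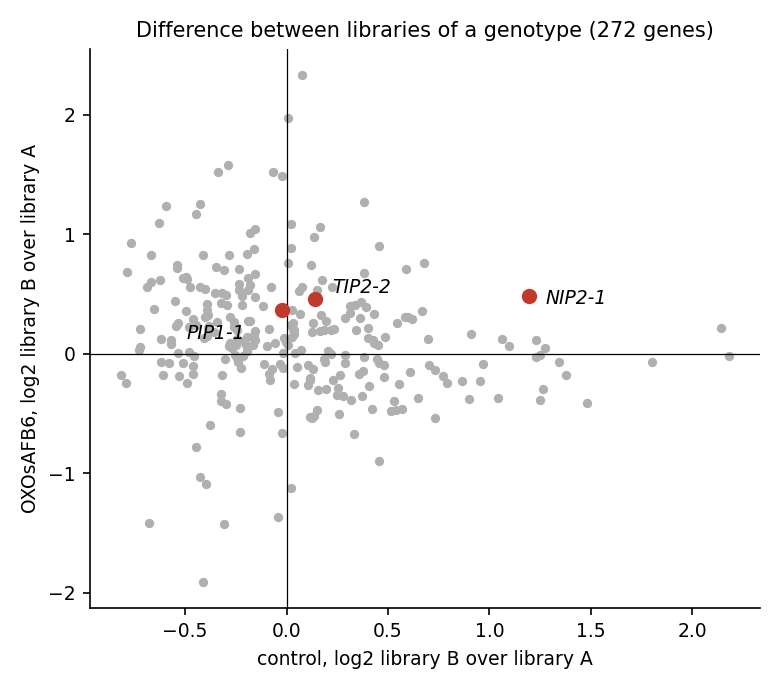
Log2 ratio of library B over library A in the control plants (x axis) and in OX*OsAFB6* (y axis) for the 272 genes with reads in all 4 libraries, each a grey point, with the aquaporin genes in red. *TIP2-2* lay at 0.14 and 0.46, and *NIP2-1*, with 21 and 53 reads in the control libraries, stood far to the right.

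In the control plants *TIP2-2* was the sixth highest of the 287 genes by mean normalized read count, and in the mutant it ranked 21. These ranks compare read counts that are not corrected for length. The gene took 3.94% of the summed control means of the listed genes and 1.11% of the summed mutant means. Its difference, mutant minus control, was -15505 normalized reads. This was the fifth largest loss, and it made up 5.27% of the loss of 293953 summed over the 229 lower genes.

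By log2 ratio *TIP2-2* ranked 33 from the most lowered of the 279 genes that were above 0 in each mean, and another 8 genes were listed at 0 in the mutant. Among the 82 genes with a control mean of at least 1000 it ranked 4. That cut uses a value that also chose *TIP2-2*, and it favours lowered genes. Of the 82 genes 74 were lower, against 229 of all 287. The 3 ahead of *TIP2-2* in this cut, named after their values were seen, were OS09G0554200, OS04G0679400 and OS10G0208500. They had log2 ratios of -3.76, -2.73 and -2.64. Their control means were 4034, 2992 and 3764, and the files do not describe what they encode. Genes just beside *TIP2-2* in the order of the ratio were at a much lower level. OS05G0191700 had a control mean of 98.2 and a log2 ratio of -2.62. The kinase gene *WNK7* (OS11G0114600) had a control mean of 129.7 and a log2 ratio of -2.60.

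**Figure D3:**
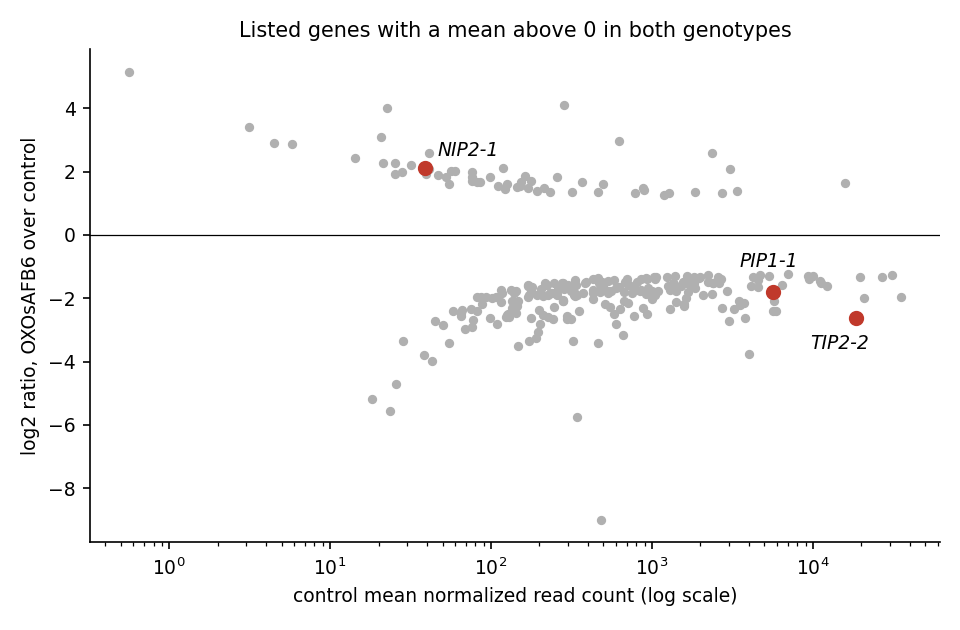
Log2 ratio of OX*OsAFB6* over control (y axis) against the control mean normalized read count (x axis, log scale) for the 279 listed genes whose means both exceed 0, with the aquaporin genes in red. *TIP2-2*, at -2.62 and 18529, lay at the lower right, below the other genes of its abundance, on values that also chose it. No listed gene lies near 0.

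Only 5 listed genes had a higher control mean than *TIP2-2*, and all 5 were lowered less. OS12G0569300, described as a thaumatin-like cytokinin-binding protein, had the highest control mean of 35345 and a log2 ratio of -1.95. *FOR1* (OS07G0568700), described as polygalacturonase inhibitor 1, had a control mean of 31218 and a log2 ratio of -1.26. The thaumatin family gene OS01G0839900 had 26758 and -1.32, and OS05G0344200, of undescribed function, had 20801 and -2.00. The phosphoenolpyruvate carboxylase kinase gene OS02G0625300 stood just above *TIP2-2*, at 19492 and -1.34. *TIP2-2* thus had the lowest ratio of the 6, on values that also chose it.

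The gene just below *TIP2-2* in the control order was OS02G0178100, at 15747 in the control plants and 49357 in the mutant, a log2 ratio of 1.65. Its description names an auxin signaling F-box protein, the family of the overexpressed gene, and also holds a chromosome 3 identifier, Os03g0187500. The identifier of the row itself lies on chromosome 2, where the study places *CCT05*, the gene of the inserted vector, whereas it places *OsAFB6* on chromosome 3. The study reports no detectable overexpression of *CCT05* in this line, and raised *OsAFB6* in mutant seedlings. Which of these genes the row counts could not be settled from the deposited values, so the row is no clean check of the genotype labels. Its mutant mean allowed 3 pairs of whole reads, so no value per mutant library is given.

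The 5 listed genes most like *TIP2-2* were found by the distance between log2 means, over the 2 means of each gene. The nearest was *D14* (OS03G0203200), the strigolactone receptor, at a distance of 0.72, with normalized read counts of 13104 and 11229 in the control libraries and 4105 and 3787 in the mutant libraries. OS05G0344200 followed at 0.80, with 18344 and 23258 against 4857 and 5566. OS04G0535200, of undescribed function, came next at 0.82, with 12643 and 9669 against 3591 and 4168. None of these overlapped between the genotypes, and neither did any of the 285 resolved genes (100%). The others were OS03G0351300, of glycosyl hydrolase family 14, the family of beta-amylases, at 0.85, and OS06G0470350, which has no description, at 0.98. Their log2 ratios were -1.45 and -1.30. All 5 were lowered less than *TIP2-2*, between -1.30 and -2.00 on the log2 scale. In each of the 5 both mutant libraries lay above both mutant libraries of *TIP2-2*. The 2 means behind the distance also chose *TIP2-2*, so these contrasts are a description only.

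**Figure D4:**
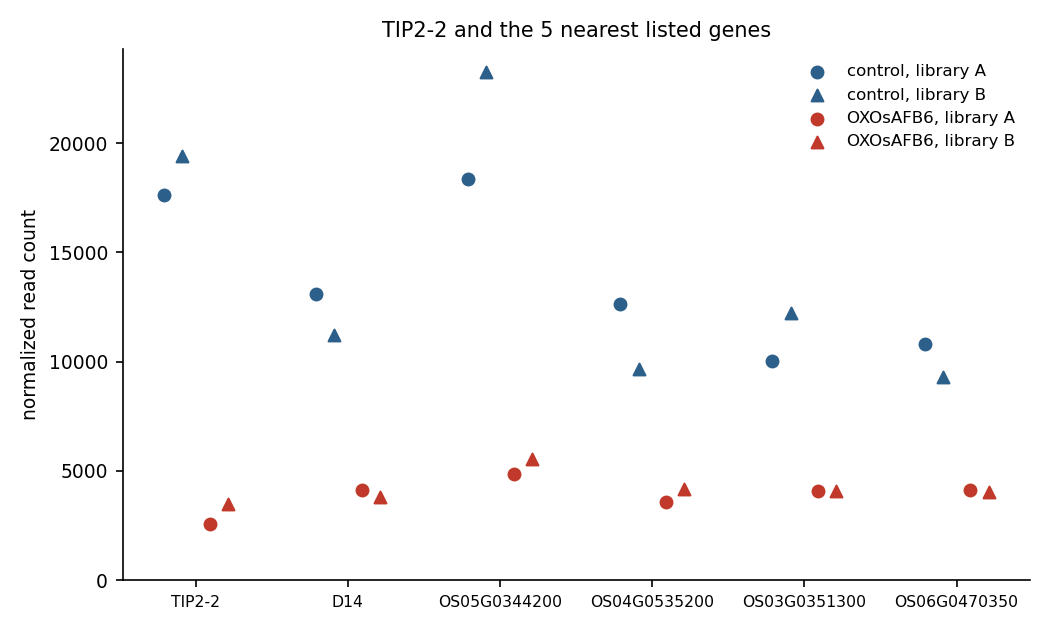
Normalized read count (y axis, linear from 0) of *TIP2-2* and its 5 nearest listed genes (x axis) in libraries A (circles) and B (triangles) of the control plants (blue) and OX*OsAFB6* (red). The mutant libraries of *TIP2-2*, 2549 and 3498, lie below those of the other genes, whereas its control libraries are matched only by OS05G0344200. *TIP2-2* was chosen on these same values.

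Apart from *TIP2-2*, 2 of the listed genes were described as aquaporins. *PIP1-1* (OS02G0666200, chromosome 2) encodes a plasma membrane aquaporin. Its reads numbered 5049 and 5481 for the control libraries and 1432 and 2085 for the mutant libraries. As normalized read counts, the control libraries were at 5691 and 5611 and the mutant libraries at 1418 and 1827, so the control libraries were almost equal and the mutant libraries both lay well below them. Its means were 5651 and 1622, and it was 3.48-fold lower in the mutant, a log2 ratio of -1.80. Leaving out 1 library at a time, the value stayed between 3.09-fold and 3.99-fold lower. As for *TIP2-2*, mutant library B was the higher mutant library.

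*NIP2-1* (OS02G0745100, chromosome 2) is *Lsi1*, which is known in rice roots as the channel that takes up silicic acid. It was the listed aquaporin that was higher in the mutant. Only 21 and 53 reads came from the control libraries, and 141 and 223 from the mutant libraries, or normalized read counts of 23.7 and 54.3 against 139.6 and 195. The means were 39.0 and 167, and the gene was 4.30-fold higher, a log2 ratio of 2.10, and ranked 15 from the most raised gene. Control library B was above control library A by 1.20 on the log2 scale, on this small number of reads. Without control library A the gene was 3.09-fold higher, and without control library B it was 7.08-fold higher.

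With 2 of 3 aquaporin genes lower in the mutant (66.7%), the group was close to all listed genes, of which 79.8% were lower. The median log2 ratio was -1.80 for the 3 aquaporin genes and -1.68 for the 279 genes. A count of 3 genes is too small to show whether their direction differs from that of the table. Their median is the value of *PIP1-1* alone. The balance between the aquaporin genes can be followed within a library, where size factors cancel in ratios and shares. Gene lengths cancel only when the ratio of 2 genes is compared between libraries. They do not cancel in the ratio itself, the sums or the shares. *TIP2-2* over *PIP1-1* was 3.10 and 3.46 in the control libraries and 1.80 and 1.92 in the mutant libraries. The ratio was lower in both mutant libraries, as *TIP2-2* was lowered more than *PIP1-1*, on values that also chose *TIP2-2*. Summed over the 3 genes, the normalized read count was 23341 and 25096 in the control libraries and 4106 and 5520 in the mutant libraries. *TIP2-2* made up 75.5% and 77.4% of this sum in the control plants and 62.1% and 63.4% in the mutant. The share of *NIP2-1* was 0.101% and 0.216% in the control plants against 3.40% and 3.54% in the mutant. The values that chose *TIP2-2* enter the ratio, the sum and the shares, so these are a description only.

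Other genes that move ions and solutes were mostly lower as well. Of 12 listed genes described as other membrane transporters, 11 were lower in the mutant (91.7%, against 79.8% of all listed genes), and their median log2 ratio was -2.01. The most abundant in the control plants was OS12G0503000, a putative ureide permease, with normalized read counts of 1608 and 1545 in the control libraries and 335 and 356 in the mutant libraries. The zinc transporter gene *ZIP2* (OS03G0411800) had a log2 ratio of -2.29. The lowest ratio was that of OS12G0231000, a member of the POT family of peptide and nitrate transporters, at -5.77 with only 10 and 3 reads in the mutant libraries. The single higher member was OS03G0839200, of the MATE efflux family, with a log2 ratio of 1.70. The only listed proton pump was a plasma membrane ATPase, OS04G0656100, which energizes uptake at the cell surface. It was at 4488 and 6258 in the control libraries and 2240 and 2097 in the mutant libraries, a log2 ratio of -1.31. No description in the table named a vacuolar proton pump.

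Genes related to cell expansion and to water deficit gave small groups. Of 5 genes matched to cell expansion and the wall, 4 were lower (80%), the same share as the 79.8% of all listed genes. Among the lower ones, *FOR1* and the beta-amylase family gene OS03G0351300 do not loosen walls, and the latter is the median of the 5, at -1.45. OS10G0370500, described both as a cellulase containing protein and as a putative glucan 1,3-beta-glucosidase, had a log2 ratio of -1.83. The lowest ratio of the 5, -2.60, was that of OS03G0374600, a putative glucanase of glycosyl hydrolase family 17. The higher one was the expansin gene *EXPA2* (OS01G0823100), a wall-loosening protein, with a log2 ratio of 2.87 on 3 and 8 reads in the control libraries. All 3 genes matched to water deficit and abscisic acid were lower, beside 79.8% of all listed genes. The dehydrin gene OS03G0655400 had normalized read counts of 1931 and 1694 in the control libraries and 515 and 745 in the mutant libraries. ABA responsive element binding factor 1 (OS01G0867300) and protein phosphatase 2C 61 (OS07G0114000) had log2 ratios of -1.51 and -2.81. The phosphatase was matched by its family name, and its description names neither water deficit nor abscisic acid.

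**Figure D5:**
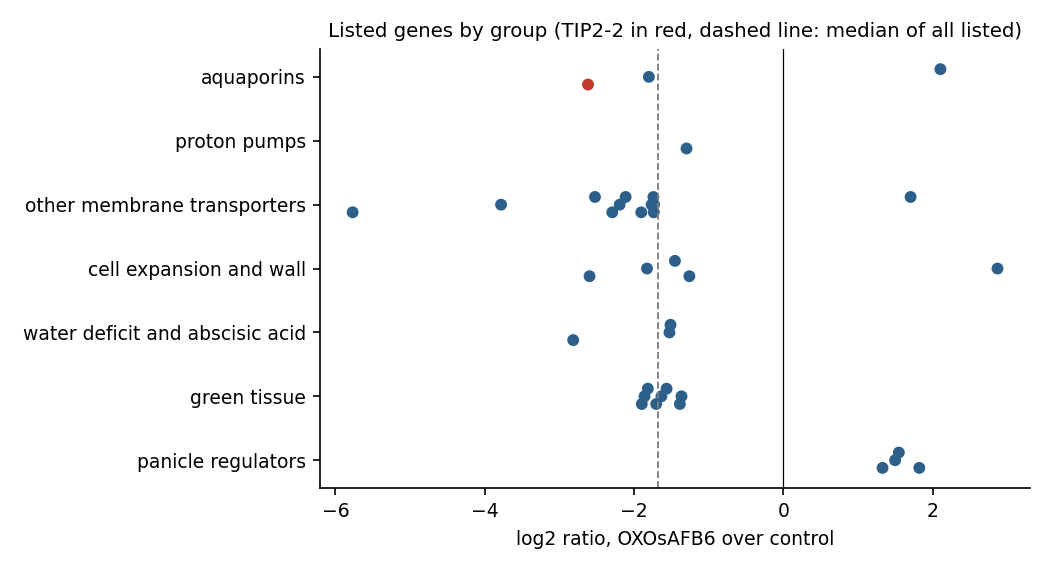
Log2 ratio of OX*OsAFB6* over control (x axis) of each listed gene in 7 groups matched by description (y axis), with *TIP2-2* in red and a dashed line at the median of all listed genes, -1.68. Genes of a group are shifted vertically only to separate the points. The panicle regulators, matched partly by names of single genes, are the group with all members to the right of 0.

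Genes of green tissue were lower together with *TIP2-2*. All 8 listed genes whose description names a part of the photosynthetic light reactions or chlorophyll were lower in the mutant, beside 79.8% of all listed genes. Their log2 ratios ran from -1.90 to -1.36. Their summed normalized read counts were 7612 and 6758 in the control libraries and 2261 and 2711 in the mutant libraries. The sum was 2.89-fold lower. *TIP2-2*, which was chosen by its own low ratio, was 6.13-fold lower. The 4 genes matched as panicle regulators, *LAX*, *MADS34*, *SPL8* and *FL*, were higher in the mutant, beside 58 of all 287 listed genes. Their log2 ratios ran from 1.33 to 1.82. The search terms for this list included names of single genes, so its shared direction is no result about panicle regulators at large. Most of the summed mean of the 4 genes was *FL*, with 2725 of 3165 in the control plants and 6846 of 8157 in OX*OsAFB6*. Outside that list, and named after their values were seen, *G1L8* (OS05G0472000) and the TCP transcription factor gene OS02G0747400 were lower, at -1.67 and -1.60. The green tissue and panicle groups hold only members that passed the authors' selection, and their part in the value of *TIP2-2* was not tested.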

How the data were processed

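Of the 4 samples, 2 per genotype by their genotype labels, the authors deposited 1 table of 287 selected genes. Its means are headed RPKM, but the deposited values are a signal, namely reads scaled by a size factor and given as 1 mean per genotype. The authors' log2 fold change, p-value and adjusted p-value columns were not used, and no test was run, because the table holds selected genes only. The submitters' processing notes name Bowtie 0.12.2 and the builds IRGSP-1.0 and mm8, and the counting tool is not given in the sources used here, so reads shared with similar genes such as *TIP2-1* on chromosome 2 cannot be assessed.

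Reads were recovered with Python 3.11.15 and numpy 2.4.6 as the pairs of whole reads that gave a printed mean within its rounding, with the value of 1 read in each library taken from the lowest means and narrowed over all genes. In each genotype 286 means had 1 pair, 1 had several and 0 had none. The step was tested on simulated data. Poisson intervals used scipy 1.17.1. RefSeq names (assembly ASM3414082v1) matched 0 identifiers, so genes were matched by name. Members and lists were chosen with earlier results of these data known. Named were the listed aquaporins, the 5 nearest genes by log2 means, the neighbours in both orders and the genes with a higher control mean. Also named were the extremes of each description list except green tissue, which is given by range, and the row for the auxin receptor family.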

Additional observations from a re-analysis of the deposited data

How the results depend on the processing

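The log2 ratio of *TIP2-2* was -2.62. Pseudocounts of 1 and 10 gave -2.615 and -2.612, and leaving out 1 library at a time gave -2.86 to -2.41. Reads summed without size factors gave -2.40, an alternative chosen after seeing the data. The libraries of the genotypes lay far apart for this gene, so its direction could not turn under these settings. Set against the median of all listed genes the log2 ratio of *TIP2-2* was -0.94, since that median is itself -1.68. On that scale *PIP1-1* was at -0.12 and *NIP2-1* at 3.78, so no aquaporin turned direction. The rank by abundance was 6 by the control mean, 21 by the mutant mean and 7 by the mean of both. The rank by log2 ratio was 33, and it was 21 of 263 genes with a lower mean of at least 10, 4 with a control mean of at least 1000 and 17 with a pseudocount of 10 together with the 8 genes at 0 in the mutant, which the rank of 33 leaves out. The number of lower aquaporins remained 2 with wider names. A rounding tolerance 2 times wider gave the same reads for *TIP2-2*. A rank per coding length was not run, because no coding lengths were at hand. No paired analysis was possible because the means do not tell which library carries which replicate number. With 2 libraries a genotype and only selected genes, neither the spread nor the background of unselected genes can be estimated here.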

Other observations

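The RefSeq gene table holds 29 genes with an aquaporin name, 9 of them TIP genes. Of these 29, 3 were in the deposited table and are described above, and *TIP2-2* is the only TIP gene among them. Expression of the other 26, among them the closest relative by name, *TIP2-1*, was not analysed here.

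On chromosome 6, 19 of 21 listed genes were lower in the mutant, beside 229 of 287 (79.8%) in the whole table. Among the listed genes only, ordered by identifier, *TIP2-2* stands between OS06G0306600 and OS06G0347100, and genes outside the list are not seen. OS06G0306600, a putative esterase gene, had means of 789 (control) and 235 (OX*OsAFB6*). OS06G0347100 had 0 reads in both mutant libraries and a control mean of 61.6. The next listed gene, OS06G0361500, also had 0 reads in both mutant libraries, against a control mean of 16.3. The values of these neighbours were looked up after those of *TIP2-2* were seen, and identifiers give the order of genes only.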
